A study of Drosophila melanogaster with 8 samples.

Results

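Between 23 and 25 Mb on chromosome arm 3R of Drosophila melanogaster lies one of the stretches most densely covered by regions enriched for linker histone H1. The block was defined as all regions of the authors' combined list whose midpoint lies above 23 Mb and not past 25 Mb of 3R (FlyBase r5). It holds 351 of the 16190 combined regions of the genome and 351 of the 3679 on 3R. By the same rule the 4 replicate lists have 97, 70, 94 and 107 regions in the block, out of 2820, 2185, 2886 and 3410 in all, for replicates 1 to 4. The stretch was chosen by the covered share of its 1 Mb windows, which is among the highest of the large arms. Its high coverage is therefore the reason it was picked and is described here without a test.

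H1 was mapped by ChIP-seq, in which chromatin is precipitated with an antibody and its DNA is sequenced, in wild-type embryos of the Oregon-R strain (Oregon-R-modENCODE), aged 14 to 16 h. The series has 8 samples, 4 from H1 immunoprecipitation and 4 from input chromatin, all of the same genotype, strain and age with no treatment. The files used are 4 lists of enriched regions, one for each immunoprecipitated sample, and 1 combined list. Whole embryos were fixed, so every value is a mixture over cell types, and the labels do not say that the replicates came from separate collections. No read counts come with the lists, so depth is unknown and a place without a region is not shown to lack H1.

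Linker histones bind the nucleosome where DNA enters and leaves the particle, and their binding favours a more compact chromatin fibre. In Drosophila, H1 is present on most chromatin, is needed for normal heterochromatin structure and silencing, and shapes the structure of polytene chromosomes. A region in these lists is a place where the authors called more signal from the immunoprecipitation, not the only place where H1 sits. Genes and DNA sequence at these coordinates were not analysed here, and regions are named by position.

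The combined list covered 40.0% of the 2 Mb block, against 24.6% of the rest of 3R. The replicate lists covered 8.38%, 5.78%, 8.42% and 9.25% of the block, against 3.95%, 3.16%, 3.81% and 4.82% of the rest of the arm. Replicate 2 was the lowest in both places, and the lowest share inside the block was above the highest share outside it. The ratio of block to rest was 2.02 ± 0.17 (SD, n = 4) and ranged from 1.83 to 2.21. The block makes up 7.17% of the length of 3R and held 12.5% to 13.6% of the 3R regions of each replicate list, and 9.54% of those of the combined list.

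Among the 117 windows of 1 Mb on 2L, 2R, 3L, 3R and X, the first window of the block ranked 3 and the second ranked 5 in the combined list, at 42.4% and 37.7%. In the replicate lists the first window ranked 3, 2, 4 and 5 and the second 4, 6, 3 and 2, for replicates 1 to 4. Both windows were among the 6 most covered in each replicate. The block was chosen by this measure in these same data, so the ranks describe it and are no further support. The window before the block, 3R 22000001-23000000, was also dense, at 33.5% in the combined list (rank 8). The window after it, 3R 25000001-26000000, was covered at 21.2% (rank 54). The density therefore fell off more on the distal side, towards the telomere end of the arm, than on the proximal side.

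**Figure D1:**
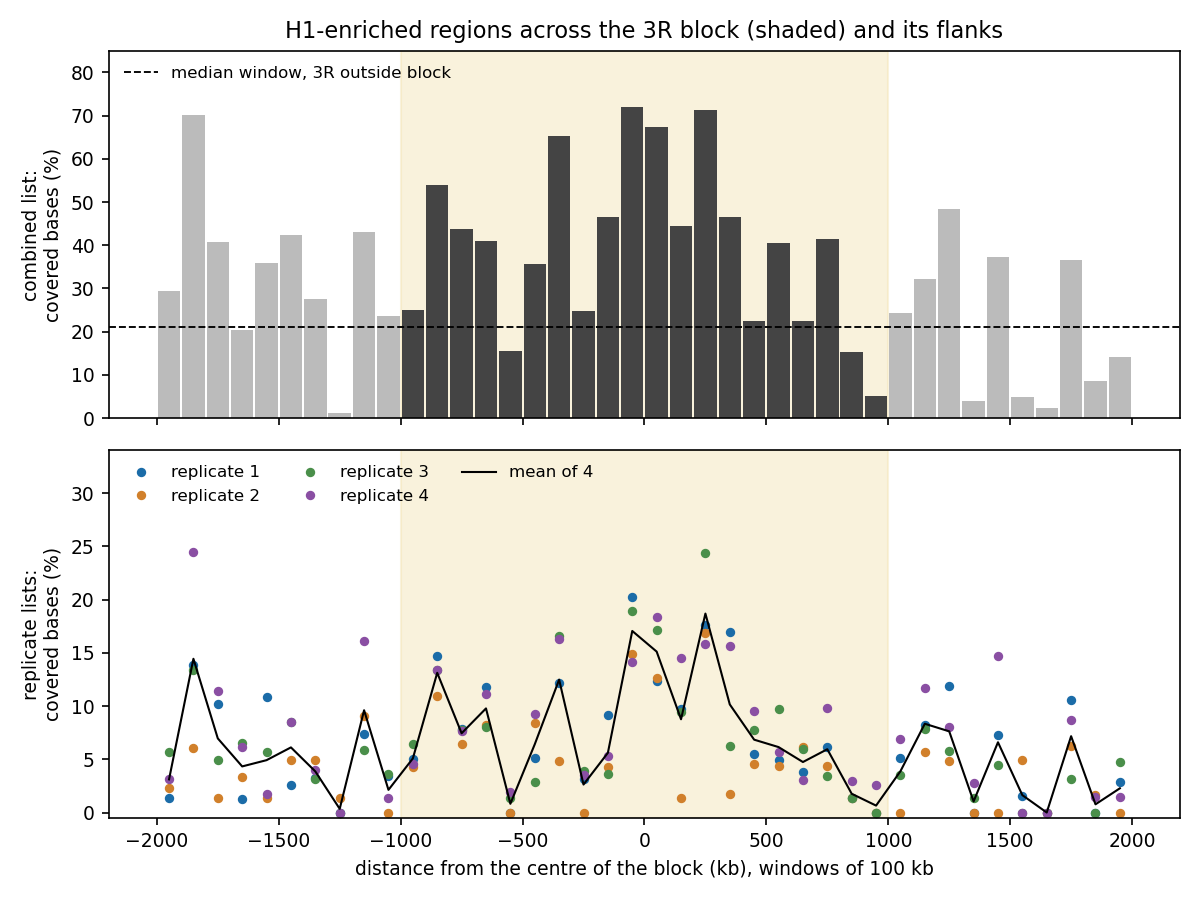
Covered bases (%) in windows of 100 kb against distance from the centre of the block, for the combined list (top) and the 4 replicate lists (bottom, points, with their mean as a line). The dashed line is the median window of 3R outside the block, 21.1%, and inside the shaded block 17 of 20 windows of the combined list lie above it.

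Finer windows showed that the block is not evenly dense. Of its 20 windows of 100 kb, 17 were covered above the 21.1% median of the 259 other windows of 3R in the combined list, and 5 were above their 90th percentile. Coverage in the combined list ran from 5.08% to 72.0% between the windows of the block, with a median of 41.3%. Outside the block the range was wider still, from 0 to 76.3%, so single windows as dense as those of the block also occur elsewhere on 3R.

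The densest windows lay in the middle. Window 3R 23900001-24000000 was covered at 72.0% in the combined list and at 20.2%, 14.8%, 18.9% and 14.2% in replicates 1 to 4. Window 3R 24200001-24300000 was covered at 71.2% in the combined list and at 17.6%, 16.8%, 24.4% and 15.9% in the replicates. These ranked 2 and 3 among all 279 windows of 3R, and by the mean of the replicates 3 and 2. Between them, window 3R 24000001-24100000 reached 67.4% in the combined list and 12.4%, 12.6%, 17.1% and 18.3% in the replicates.

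The 5 adjacent windows from 23900001 to 24400000, picked after their values were seen, form a core. Regions covered 60.3% of this core in the combined list and 13.9% ± 3.0 in the replicate lists (SD, n = 4). The other 1500 kb of the block were covered at 33.2% and 5.96% ± 1.05 (SD, n = 4). The core was the denser part in each replicate, by 2.54, 2.08, 2.48 and 2.21 times. It held 118 of the 351 combined regions in 500 kb of the 2 Mb.

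A further peak of density stood apart from the core. Window 3R 23600001-23700000 was covered at 65.3% in the combined list and at 12.1%, 4.87%, 16.6% and 16.3% in replicates 1 to 4, with replicate 2 well below the others. Near the proximal limit, window 3R 23100001-23200000 was covered at 54.0% in the combined list. Its replicate values of 14.7%, 10.9%, 13.4% and 13.4% were close to each other.

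Sparse windows also lay within the limits. Window 3R 23400001-23500000 was covered at 15.6% in the combined list and at 0, 0, 1.38% and 1.89% in replicates 1 to 4. The last 200 kb of the block, from 24800001 on, were covered at 10.1% in the combined list and 1.20% ± 1.03 in the replicates (SD, n = 4), and held 14 combined regions. Past the 25 Mb limit, which was set by the 1 Mb windows, coverage rose again. Windows 3R 25000001-25100000, 25100001-25200000 and 25200001-25300000 were covered at 24.3%, 32.2% and 48.3% in the combined list. These lay above the 21.1% median window of 3R outside the block, with replicate means of 3.88%, 8.33% and 7.62%. Replicate 2 had no region in the first of them. The next window, 3R 25300001-25400000, fell to 3.89% in the combined list. The replicate lists had no region in 2, 3, 1 and 0 of the 20 windows of the block, which is 10%, 15%, 5% and 0. In the rest of 3R, 22.8%, 29.0%, 25.9% and 20.1% of the windows had none.

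Across the 20 windows, the covered shares of replicate pairs correlated with Pearson's r from 0.61 to 0.86, with a mean of 0.76, and Spearman's rho from 0.62 to 0.90 (6 pairs). Across the 259 other windows of 3R the range of r was 0.58 to 0.69. These correlations describe windows along 1 chromosome, which share base composition, mappability and the libraries themselves.

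Neither limit of the block was a sharp edge. Moving outward, the first window below the median of the rest of 3R was 3R 22700001-22800000 on the proximal side, at 1.26% in the combined list and 0, 1.38%, 0 and 0 in the replicates. On the distal side it was 3R 25300001-25400000, at 3.89% in the combined list and 0, 0, 1.35% and 2.80% in the replicates. They lie 200 kb and 300 kb beyond the limits. The search starts at the limits and so passes over the last 2 windows of the block, themselves below the median at 15.2% and 5.08%. With windows of 50 kb the distances are 0 and 100 kb, and with windows of 1000 kb they are 2000 kb and 0. At the proximal limit, 3R 22998136-23000627 (score 0.44) lay just outside and 23000961-23002379 (0.35) just inside. At the distal limit, 3R 24995049-24996053 (0.44) lay just inside and 24999547-25001177 (0.40) just outside.

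In the replicate lists the width of regions did not differ between the block and the rest of 3R beyond the spread of the replicates. Their median widths were 1589, 1495.5, 1567 and 1528 bp in the block, and 1535, 1544.5, 1523 and 1532 bp in the rest of the arm, for replicates 1 to 4. The ratio was above 1 in 2 of 4 replicates, with a mean of 1.01 ± 0.03 (SD, n = 4). The number of regions per Mb was 48.5, 35, 47 and 53.5 in the block and 23.7, 18.9, 23.3 and 28.8 outside it. In the replicate lists the high coverage therefore went with more regions, 1.94 ± 0.10 times as many per Mb (SD, n = 4), at a like median width. Regions of at least 3000 bp were few, at 0, 2, 4 and 5 in the block for replicates 1 to 4. They made up 0, 2.86%, 4.26% and 4.67% of the block regions and 2.28%, 1.63%, 1.66% and 2.14% of the others. Their share was higher in the block in 3 of 4 replicates, but rests on these few regions.

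The combined list differed in this respect. Its regions had a median width of 1898 bp in the block and 1576 bp in the rest of 3R, a ratio of 1.20. There were 175.5 regions per Mb in the block and 128.5 outside, a ratio of 1.37. Regions of at least 3000 bp made up 20.2% of the block and 12.1% of the rest of 3R, and those of at least 5000 bp 3.70% and 2.61%.

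**Figure D2:**
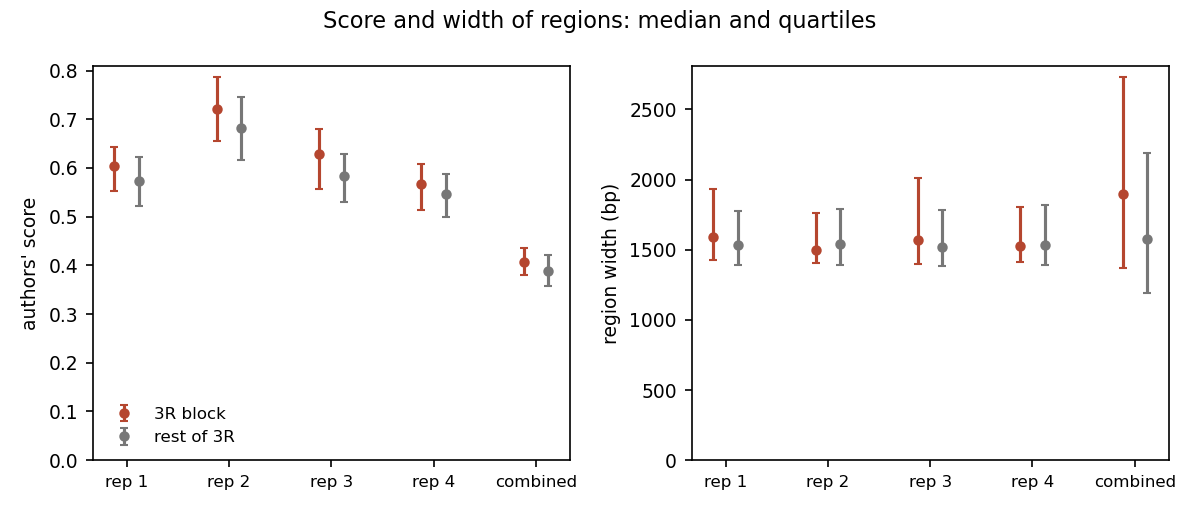
Authors' score (left) and width in bp (right) of enriched regions in the block and in the rest of 3R, for each replicate list and the combined list; points are medians and bars run from the first to the last quartile. Median scores are higher in the block in every list, while the median width is 1898 against 1576 bp in the combined list and differs by less in the replicate lists.

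The widest region of the block, 3R 23580186-23592096, spanned 11911 bp, and the next, 3R 23184020-23195905, spanned 11886 bp. The first carried regions of replicates 1, 2 and 4, which covered 31.6%, 12.1% and 12.8% of it. The latter carried regions of all 4 lists, which covered 36.2%, 12%, 48.4% and 13.1% for replicates 1 to 4. The other 8 of the 10 widest spanned 5326 to 7588 bp. Among all 10, 2 were touched by all 4 lists, 5 by 3 lists and 3 by 2 lists. Over combined regions of all widths in the genome, 0.729% were touched by all 4 and 3.56% by at least 3. Wide regions are touched more often. Of those over 4000 bp, at least 3 lists touched 33.8% over all sequences, 30.2% in the rest of 3R and 52.9% in the block. In the dense block on 2L, described below, it was 49.1%. Replicate 4 was present in each of the 10, and replicate 2 was absent from 5 of them. Over all combined regions of the block, replicate 4 touched 28.8% and replicate 2 touched 19.9%.

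Neighbouring regions were closely spaced. The median gap between combined regions was 1135 bp in the block and 1775.5 bp in the rest of 3R, and gaps under 500 bp were 29.1% and 21.6% of all gaps. In the replicate lists the median gaps were 6548.5, 9614, 7448 and 7590.5 bp in the block, against 16856, 21351, 16743 and 12175 bp outside it. Every replicate had the shorter median gap in the block. Gaps of at least 20 kb took up 19.4% of the block and 38.0% of the rest of 3R.

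Joining combined regions across gaps of at most 1000 bp gave 192 chains in the block. Of these, 77 held more than 1 region, and they took in 67.4% of the 351 regions, against 54.9% in the rest of 3R. Chains of at least 10000 bp numbered 21, or 10.5 per Mb against 3.01 per Mb outside. They carried 35.1% of the covered bases of the block and 16.9% of those of the rest of the arm.

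The widest chain, 3R 24089589-24109956, spanned 20368 bp, held 6 combined regions and was 89.5% covered. It carried 3, 1, 3 and 3 regions of replicates 1 to 4. Next came 3R 24268609-24288068 (19460 bp, 8 regions), 24057812-24076832 (19021 bp, 7 regions), 23947787-23966739 (18953 bp, 5 regions) and 24775977-24794134 (18158 bp, 7 regions). Every one of these 5 chains carried at least 1 region from each of the 4 replicate lists, and 4 of the 5 lay in the core. The core was picked for its coverage, and long chains need dense coverage, so their place there follows from the choice. Over all chains of at least 10000 bp, 13 of 21 in the block (61.9%) and 30 of 78 in the rest of 3R (38.5%) were touched by all 4 lists. In the dense block on 2L, 19 of 36 were (52.8%). Wider chains occur elsewhere on 3R, up to 41010 bp.

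**Figure D3:**
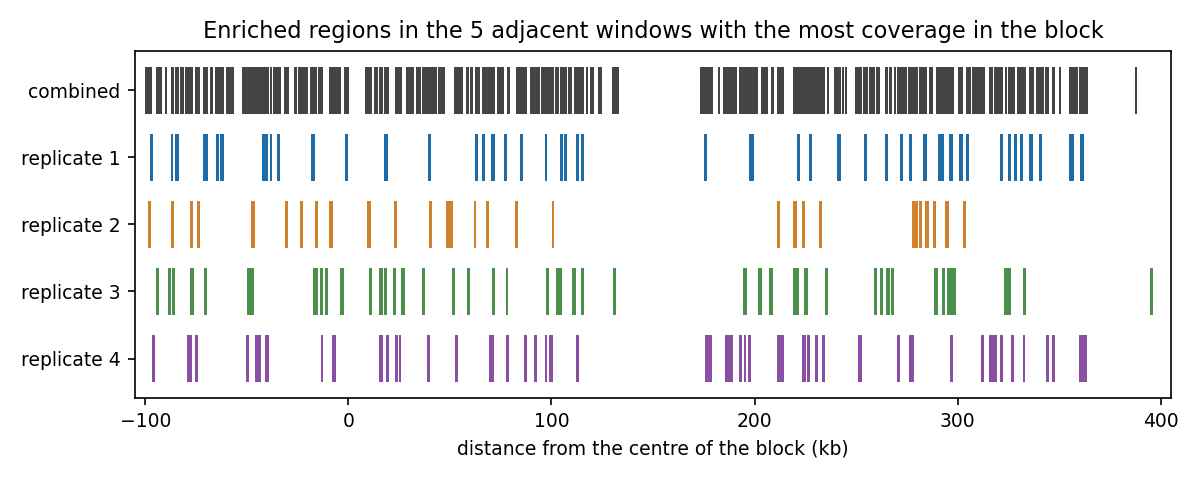
Enriched regions of the combined list and the 4 replicate lists between 23900001 and 24400000 on 3R, drawn to scale against distance from the centre of the block in kb. Combined regions cover 60.3% of the stretch, a gap of 39571 bp holds no region of any list, and regions of single replicates fall at different places within the same chains.

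The longest gap in the block, 3R 24870839-24951977, ran for 81139 bp near the distal limit. No replicate list had a region that touched it. The same held for 3R 23371470-23419087 (47618 bp), 24133367-24172937 (39571 bp, inside the core) and 24406417-24440701 (34285 bp, next to the core). Of the 5 longest gaps, 3R 24953825-24990657 (36833 bp) was the exception, with 1 region of replicate 4. Over all gaps of the block the picture differed between lists, as 0, 8, 12 and 1 regions of replicates 1 to 4 lay wholly in gaps. In the rest of 3R they were 14 of 615, 100 of 490, 141 of 603 and 22 of 747, so the lists differed in the same way there.

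The authors' score was slightly higher in the block. Scores have no stated scale, so they were compared within a list only. The median score was 0.60, 0.72, 0.63 and 0.57 in the block and 0.57, 0.68, 0.58 and 0.55 in the rest of 3R, for replicates 1 to 4. The ratio was 1.06 ± 0.02 (SD, n = 4), above 1 in 4 of 4 replicates, and 1.05 in the combined list. Quartiles of the 2 groups overlapped widely in every list. Of the block's regions, 71.1%, 70%, 60.6% and 58.9% scored above the median of the rest of 3R. Scores come from the same immunoprecipitations as the calls that chose the block, so the ratio is given without a test.

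The highest score of the block in the combined list, 0.72, belonged to 3R 24069657-24072377, a region of 2721 bp in the core. Replicates 1, 3 and 4 had a region there, with scores of 0.913, 0.655 and 0.889, and replicate 2 had none. For replicates 1 and 4 this was also their own highest score in the block. Combined regions 3R 24073200-24075464 (score 0.52, no replicate list) and 24075619-24076832 (score 0.55, replicate 1) follow within the same chain and ranked 6 and 4. On the whole of 3R, 5 combined regions scored higher than the top of the block, up to 1.74.

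Of the 10 highest scores, 7 lay in the core. The core held 33.6% of the combined regions of the block and was picked after its values were seen. Region 3R 23701037-23702151 ranked 2 with a score of 0.62 and was 1115 bp wide, and 24349865-24350865 ranked 7 with 0.50 and was 1001 bp wide. Neither was touched by any replicate list. By contrast, 3R 23141177-23145567, which ranked 3 with 0.56, spanned 4391 bp and had regions of replicates 1, 2 and 4 with scores of 0.644, 0.817 and 0.72. Among all 10, 3 were touched by no list, 2 by 1 list, 2 by 2 lists and 3 by 3 lists, where 42.2% of all block regions were touched by none and 12.3% by at least 3. The highest scores of replicates 2 and 3, at 3R 24526551-24528060 (0.88) and 24583406-24584737 (1.08), were touched by no other replicate list.

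Recurrence between replicates was then described for the block. Of its 351 combined regions, 203 (57.8%) had contact with at least 1 replicate list over at least 1 bp, where the share was 44.2% over all sequences and 47.2% in 3R outside the block. At least 2 lists touched 28.5%, against 14% and 15.4%. At least 3 lists touched 43 regions (12.3%), against 3.56% and 3.76%. All 4 lists touched 7 (1.99%), against 0.729% and 0.871%. The block was higher than both at each step. Every list also has more regions there. In the dense block on 2L, described below, all 4 lists touched 2.21%.

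Wide regions were touched most. In the block, 115 regions of 1001 to 1500 bp were touched by at least 1 list in 29.6% of cases, and 34 regions over 4000 bp in 100% of cases. The rest of 3R had 24.95% and 96.5% in these width classes. Regions of 1501 to 2500 bp were touched in 55.4% and 55.9% of cases, and those of 2501 to 4000 bp in 87.5% and 80.3%. For contact with at least 3 lists, regions of 2501 to 4000 bp reached 25% in the block (18 of 72) and 7.86% outside (36 of 458). Regions over 4000 bp reached 52.9% (18 of 34) and 30.2% (52 of 172). In the dense block on 2L these shares were 11.5% (12 of 104) and 49.1% (26 of 53). The gap between block and rest was thus larger, as a ratio, for contact with 3 or more lists than for contact with 1 or more. Contact with 1 or more cannot pass 100%, and every list has more regions per Mb in the block. This difference was not separated from density.

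**Figure D4:**
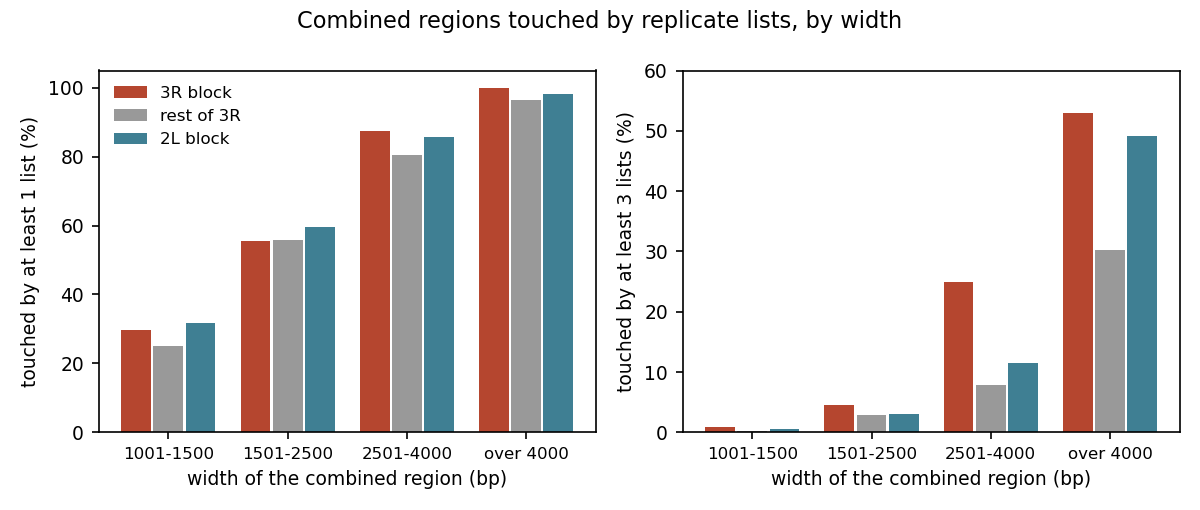
Share of combined regions touched by at least 1 (left) and at least 3 (right) replicate lists, in 4 classes of region width in bp, for the 3R block, the rest of 3R and the 2L block. Bars start at 0; the share rises with width in all 3 places, and for regions of 2501 to 4000 bp contact with at least 3 lists is 25% in the 3R block against 7.86% in the rest of 3R.

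The 7 regions touched by all 4 lists were 3R 23147704-23151412, 23184020-23195905, 24036026-24043613, 24096560-24101489, 24295868-24298107, 24614298-24618309 and 24783324-24786800. They spanned 2240 to 11886 bp, and their scores of 0.39 to 0.47 lay at ranks 22 to 234 of 351, and none was among the 10 highest scores of the block. The core held 3 of them, and 33.6% of all 351 combined regions of the block. The region 3R 24036026-24043613 was covered nearly equally, at 19.2%, 21.2%, 20.7% and 19.9% by replicates 1 to 4. At 3R 24614298-24618309 the shares were 47.6%, 45.3%, 40.1% and 38.9%. At 3R 24295868-24298107, in contrast, replicate 3 covered 100% of the region and replicate 2 only 0.36%, at its margin.

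Contact with the same combined region did not mean overlap at the same bases. No base of the block was covered in all 4 lists, although each of the 7 regions was touched by all 4. At least 1 list covered 25.1% of the block. Of these bases, 75.7% were covered by 1 list, 21.8% by 2 and 2.49% by 3. In the rest of 3R the shares were 84.1%, 14.0% and 1.85%, and 0.12% lay in all 4. In the dense block on 2L 0.33% lay in all 4. Some other stretches of 2 Mb on 3R also had no such base, among them 3R 21000001-23000000 and 25000001-27000000 beside the block. Where regions of 2 lists touched in the block, their midpoints were 676 to 993 bp apart (median of each of 6 pairs), against a median region width of 1545 ± 41.5 bp (SD, n = 4). The rest of 3R gave 515.5 to 834.5 bp.

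Pairs of lists overlapped more in the block in absolute terms. The share of regions in contact with a given other list was 29.2% ± 3.8 in the block and 19.6% ± 2.7 in the rest of 3R (SD, 12 ordered pairs), and the block was higher in 12 of 12. Shared bases over bases in either list were 8.33% ± 1.34 and 6.05% ± 0.48 (SD over 6 pairs), higher in the block in 6 of 6. Pairs share libraries, so no p is given.

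The order turned around when shared bases were divided by the product of the covered shares of both lists. That product is what placement without regard to each other would give on average. The ratio cannot pass the inverse of the larger covered share, so its ceiling is lower in the block, and density is not fully divided out. This ratio was 1.98 ± 0.35 in the block and 2.95 ± 0.26 in the rest of 3R (SD over 6 pairs), and the block was lower in 6 of 6 pairs. Replicates 2 and 3 had the highest ratio in the block, at 2.68, and the other pairs lay between 1.75 and 1.98. The rest of 3R spans both dense and sparse sequence, so the product was also taken locally. With the product taken within each window of 100 kb, a setting added after the values were seen, the ratios were 1.43 ± 0.18 and 1.71 ± 0.13, and the block was lower in 5 of 6 pairs.

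**Figure D5:**
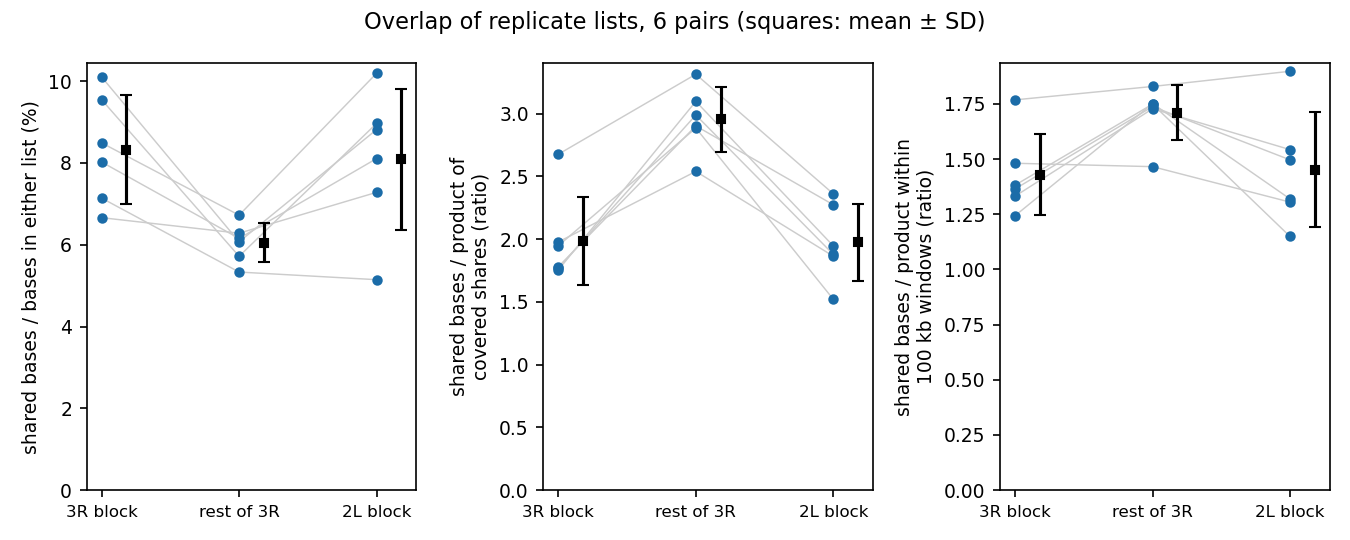
Overlap of the 6 pairs of replicate lists in the 3R block, the rest of 3R and the 2L block: shared bases over bases in either list in percent (left), shared bases over the product of covered shares (middle) and over that product within windows of 100 kb (right). Points are pairs, lines join the same pair, and squares with bars are mean ± SD; the block lies above the rest of 3R on the left (8.33% against 6.05%) and below it in the middle (1.98 against 2.95).

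The block was also set beside stretches of equal size, laid to match its limits. It was chosen for its covered share, so its rank in that measure restates the choice. Width enters the covered share, and every list has more regions in the block than in the rest of 3R per Mb. Of 13 stretches of 2 Mb on 3R, the block ranked 1 in covered share, in median width and score of the combined regions, and in the number and percent of regions touched by at least 3 lists. The percent was 12.3% for the block and 0.99% to 7.74% for the others. Median scores were close, at 0.407 in the block and 0.403 in 3R 25000001-27000000. In shared bases over the product of covered shares the block ranked 13, the lowest, with the others between 2.37 and 3.86. The ceiling of this ratio is lower where coverage is higher. The next most covered stretch, 3R 15000001-17000000, had a covered share of 32.6% in the combined list, 24 regions touched by at least 3 lists and a ratio of 2.61.

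The combined list did not follow the replicates equally. It touched 97 of 97 block regions of replicate 1 and 106 of 107 of replicate 4, but 62 of 70 of replicate 2 and 82 of 94 of replicate 3. Counted in bases, 96.1%, 67.1%, 66.8% and 94.5% of what replicates 1 to 4 covered in the block lay in combined regions, against 93.8%, 59.3%, 58.8% and 93.3% in the rest of 3R. Each of these is higher in the block, where the combined list also covers more sequence. Among the 36 block regions touched by exactly 3 lists, the missing list was replicate 3 in 12, replicate 2 in 10 and replicates 1 and 4 in 7 each. In the rest of 3R, with 96 such regions, it was replicate 1 in 30, replicate 3 in 25, replicate 2 in 21 and replicate 4 in 20, so the order was not the same there. The part that the authors' way of combining the lists has in these counts was not tested.

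At the other end, 148 combined regions of the block (42.2%) were touched by no replicate list. They were narrow, with a median of 1430.5 bp and a maximum of 3918 bp, and 53 of them were under 1301 bp, the shortest width in the replicate lists over the genome. Their median score was 0.40, against 0.43 for the 36 regions touched by 3 lists. Regions touched by no list made up 52.8% of the combined regions in the rest of 3R. The share was 55.8% over all sequences and 41.5% in the dense block on 2L.

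The dense block on 2L, from 15000001 to 18000000, was taken as the comparison for the 3R block. Its first and last 1 Mb windows ranked 2 and 1 among the 117 windows in the combined list. It was likewise picked as dense, so the like covered shares are no separate result. The combined list covered 40.7% of the 2L block and 40.0% of the 3R block, and the replicate lists 7.69% ± 1.501 and 7.96% ± 1.504 (SD, n = 4). Median combined width was 1805.5 bp on 2L and 1898 bp on 3R, and median gap 1149 and 1135 bp. Shared bases over the product of covered shares were 1.97 ± 0.31 on 2L and 1.98 ± 0.35 on 3R (SD over 6 pairs), lower on 3R in 3 of 6 pairs. At least 1 list touched 58.5% of the combined regions on 2L and 57.8% on 3R, and at least 3 lists 8.3% and 12.3%. All 4 lists touched 2.21% and 1.99%. With gaps of at most 1000 bp, chains of at least 10000 bp numbered 12 per Mb on 2L and 10.5 on 3R. With gaps of at most 500 bp they numbered 3.67 and 4.5 per Mb, and with at most 2000 bp 12.7 and 14. The median score of the 3R block was 1.08 ± 0.02 times that of the 2L block, higher in 4 of 4 replicates (SD, n = 4).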

How the data were processed

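The submitters' processing notes name Bowtie 0.12.7 for alignment, and coordinates are on FlyBase r5, per the file headers. For the region caller, its thresholds and the way replicates were combined, nothing is given in the sources used. Each line of the deposited lists holds the limits of a region and its score. That score is the authors' own value with no stated scale. Depth is unknown.

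Values were computed in Python 3.11.15 (matplotlib 3.10.9, scipy 1.17.1, pandas 2.3.3, numpy 2.4.6). Regions belong to a stretch by their midpoint, and covered shares count bases inside it, without correction for assembly gaps or repeats. A region is touched by a list that overlaps it by at least 1 bp. Coverage, contact and chains were tested on simulated lists of 300 regions and were exact in 20 of 20 runs.

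No significance test was made. The block, the lists of named regions and the measures were chosen with earlier results of these data known, and 4 replicates cannot give an exact two-sided p below 0.125. Named regions are those touched by all 4 lists, the 10 widest, the 10 of highest score, the 5 longest gaps, the 5 widest chains and those next to the limits. The core, the stretches of equal size, the width classes, the contact of long chains and the highest scores of each replicate list were added after values were seen. Alternatives were the upper part of scores, whole regions only, equal numbers of regions, overlap of 50%, other gaps and windows, leaving out each replicate and a trimmed arm. The gene table at hand follows another genome release, so genes and sequence were not analysed here, nor were the input samples.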

Additional observations from a re-analysis of the deposited data

Results flagged for a closer look

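Of 36 sets of 4 replicate values for the block, 4 had a replicate far from the other 3. Independent and normally distributed sets would give about 1.8 by chance (1 in 20). These sets overlap, so that number is only a rough guide. In the last window, 3R 24900001-25000000, replicate 4 covered 2.60% and the others 0, so the gap to the nearest replicate was all of the range (1). In the window before it, 3R 24800001-24900000, replicate 4 covered 2.91% and the others 1.37% to 1.40%, a gap of 0.981 of the range. These sparse windows hold few regions: replicate 4 had 2 in the latter and the others 1 each. In 3R 23200001-23300000, replicate 2 covered 6.46% and the others 7.66% to 7.89%, a gap of 0.838. The highest score of replicate 3, 1.08, stood above 0.88 to 0.91 in the others, a gap of 0.831.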

How the results depend on the processing

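Of 114 recomputed values for 21 results, 77 stayed within 1 SD of the replicates or pairs (for counts, and for shares of the combined list, within 1.5 times), 37 moved and 0 changed sign beyond that spread. With only the better-scoring part of each list (median score or above), which keeps fewer regions by construction, the block had 195 combined and on average 53.8 replicate regions. They covered 24.2% and 4.97% of it. The log2 ratio of covered share to the rest of 3R rose from 1.01 to 1.45, and the cause was not tested. For median score the log2 ratio fell to 0.0068 (combined) and 0.028 (replicates), and that of combined width rose to 0.52. Contact with another list was then 22.1% in the block and 11.2% outside, regions touched by at least 3 lists 12 and by all 4 lists 0, and shared bases over the product outside the block 3.77. With equal numbers of regions per list the log2 ratio of covered share was 1.19, and contact 25.1% and 15.1%. Overlap of 50% gave contact of 16.4% and 11.4%, 4 regions touched by at least 3 lists and 0 by all 4. Merging across gaps under 500 bp gave a log2 ratio of combined width of 0.43. Chains of at least 10 kb numbered 9 with gaps of at most 500 bp. With gaps of at most 2000 bp there were 119 chains, the widest of 46515 bp. The first window below the median lay 0 kb (proximal) and 100 kb (distal) past the limits with 50 kb windows, and 400 kb (distal) with 200 kb windows. Products within 100 kb windows gave 1.43 in the block and 1.71 outside. When 1 replicate was left out, between 14 and 19 regions were touched by the 3 remaining lists. The log2 ratio of covered share then ran from 0.97 to 1.06. No paired analysis was possible because the groups that share replicate numbers are the immunoprecipitated and the input samples, and no list of an input was used here. Block and rest were set side by side within each replicate throughout.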
